A study of Homo sapiens with 6 samples.

Results

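RUNX1, RUNX2, RUNX3, their partner CBFB, GATA2, GATA3, GATA6, TFAP2A, TFAP2C and MITF are 10 of the 63677 genes in a table of read counts from the ovarian cancer cell line UWB1.289. The 10 genes were chosen by name, with earlier results of the same comparison known. RUNX1, RUNX2, GATA2, GATA3, TFAP2C and MITF stand on the study's list of top transcription factors, which was drawn from these same libraries. That list ranks an activity score, which the paper estimated from how the genes under a factor's control changed. The score is not a measure of the factor's own RNA. The other 4 genes are paralogs or the shared partner. The changes and p-values of the 10 genes are therefore a description and no independent support for a role in the response. Poly(A) RNA was sequenced from 3 samples treated with Olaparib, an inhibitor of the PARP enzymes, at 4 µM for 24 h, and from 3 samples that received the vehicle DMSO for the same time. The sample labels and the paper give 4 µM, whereas the series' design text names 10 µM. UWB1.289 is a single line of BRCA1-deficient cells, so all 6 samples lacked working BRCA1. The paper describes the replicates as independent, and all came from the same line.

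Each of these proteins binds DNA at a short recognition sequence. RUNX proteins carry a Runt domain and bind the letters TGTGGT more stably when paired with CBFB, which does not itself touch DNA. GATA proteins bind AGATAA through zinc fingers, TFAP2 proteins bind GC-rich sites as dimers, and MITF binds the E-box CACGTG as a dimer with itself or with TFE3, TFEB or TFEC. GATA6 and TFAP2 proteins are known for roles in epithelia of the reproductive tract and elsewhere, RUNX1 and GATA2 for roles in blood formation, RUNX2 in bone, GATA3 in T cells and breast epithelium, and MITF in pigment cells.

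The genes compared as paralogs share a related DNA-binding domain. One 60-base window of coding sequence from this domain is given for each paralog, 5′ to 3′ on the coding strand, to show how near the genes lie to each other in a stretch where they are much alike. Capitals mark the positions at which the family members differ.
RUNX1: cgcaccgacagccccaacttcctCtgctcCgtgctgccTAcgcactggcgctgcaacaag
RUNX2: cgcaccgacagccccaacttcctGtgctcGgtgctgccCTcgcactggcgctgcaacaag
RUNX3: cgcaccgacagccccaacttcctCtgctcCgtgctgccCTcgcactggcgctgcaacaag
The Runt-domain windows were identical at 56 of 60 positions. They lie in exon 4 of RUNX1 (GRCh38, chr21:34886864-34886923, minus strand), exon 3 of RUNX2 (chr6:45422877-45422936, plus strand) and exon 1 of RUNX3 (chr1:24929608-24929667, minus strand), as numbered in the canonical transcript of each gene.
GATA2: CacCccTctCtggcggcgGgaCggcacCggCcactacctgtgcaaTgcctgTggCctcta
GATA3: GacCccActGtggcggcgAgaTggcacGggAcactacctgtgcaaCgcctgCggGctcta
GATA6: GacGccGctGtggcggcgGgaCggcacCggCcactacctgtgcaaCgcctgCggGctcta
The zinc-finger windows were identical at 49 of 60 positions. They lie in exon 4 of GATA2 (chr3:128483912-128483971, minus strand), exon 4 of GATA3 (chr10:8064027-8064086, plus strand) and exon 3 of GATA6 (chr18:22177010-22177069, plus strand).
TFAP2A: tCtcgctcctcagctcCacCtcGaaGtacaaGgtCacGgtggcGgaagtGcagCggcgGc
TFAP2C: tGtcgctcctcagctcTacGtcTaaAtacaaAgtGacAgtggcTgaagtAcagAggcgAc
The TFAP2 windows were identical at 48 of 60 positions and lie in exon 4 of TFAP2A (chr6:10404560-10404619, minus strand) and exon 4 of TFAP2C (chr20:56633458-56633517, plus strand).

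Over the whole coding sequence the paralogs differed more. Identity was 68.4% between RUNX1 and RUNX2, 72.1% between RUNX1 and RUNX3 and 69.4% between RUNX2 and RUNX3. It was 69.9% between GATA2 and GATA3, 49.3% between GATA2 and GATA6, 53.0% between GATA3 and GATA6 and 67.4% between TFAP2A and TFAP2C. No pair shared an identical coding stretch of 50 bases (0 in each of the 7 pairs).

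All 10 genes had more than 10 counts over the 6 samples and entered the fit over 21729 genes. Library totals lay between 35360458 and 39640775 counts, and the scaling factors between 0.995 and 1.013. Below, a normalized count is a read count scaled to the mean effective library size, a log2 fold change is that of Olaparib against DMSO, and a gene was called where the quasi-likelihood test of edgeR, with p-values adjusted by the Benjamini-Hochberg method over all genes tested, gave less than 0.05. RUNX3 and GATA3 rose, MITF fell, and the other 7 genes did not pass the test. Over all genes tested, 2.15% were called higher and 1.21% lower, and the same 3 genes of the 10 also passed a fold of 1.2, which 1.21% of all genes did together with the test. The samples of the treatment groups did not overlap for 5 of the 10 genes, against 19.3% of all genes. Nothing is read from these shares, because the genes were chosen on this comparison. The median log2 fold change was 0.088 over the 10 genes and -0.0042 over all genes tested.

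**Figure D1:**
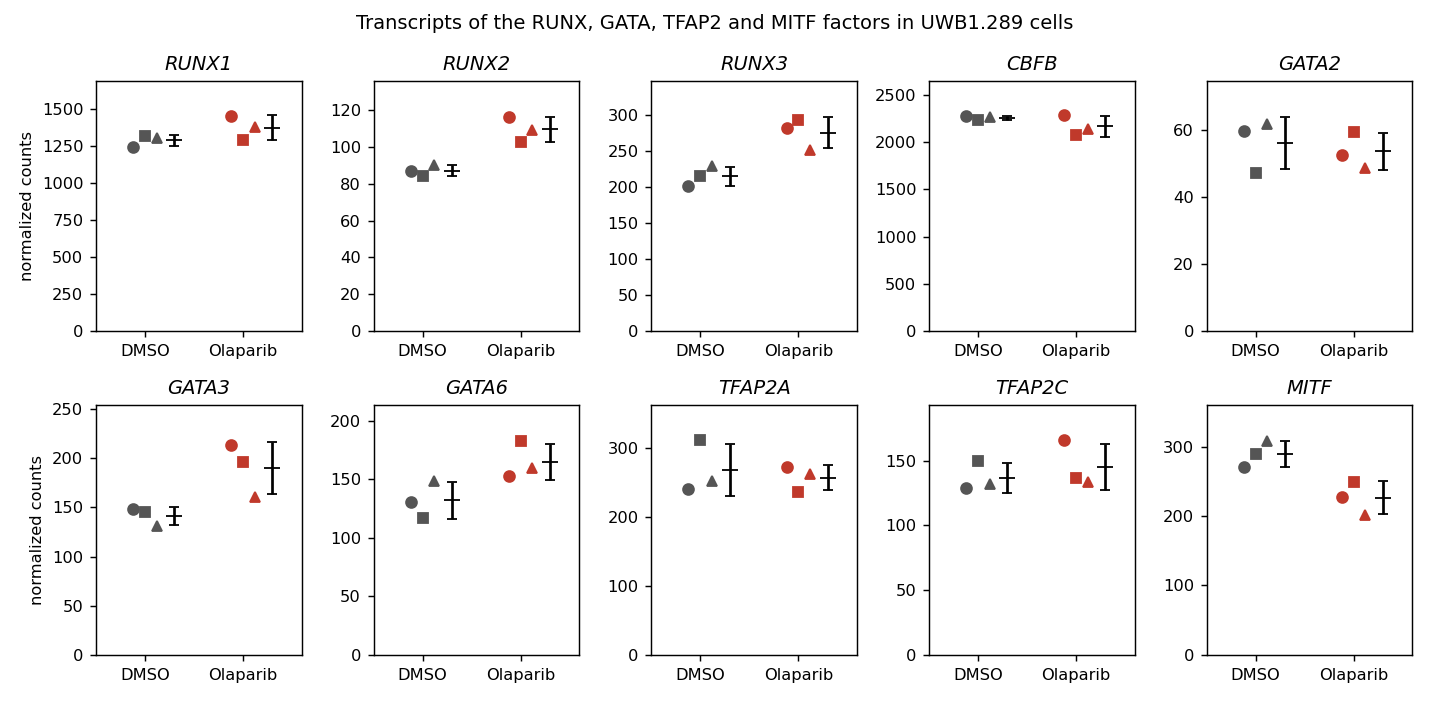
Normalized counts (y axis, from 0) of the 10 genes in the 3 DMSO samples (grey) and the 3 Olaparib samples (red), with the mean and SD of each group as a black bar beside the points. Circles, squares and triangles are replicates 1, 2 and 3. The points of the groups separate for RUNX2, RUNX3, GATA3, GATA6 and MITF and overlap for the other 5 genes.

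RUNX3 (ENSG00000020633), the RUNX factor best known for roles in lymphocytes and as a candidate tumour suppressor in epithelia, is a gene of 65.6 kb on the minus strand (GRCh38, chr1:24899511-24965121). Its normalized counts were 281.4, 293.4 and 251.5 in Olaparib replicates 1, 2 and 3 and 201.8, 214.7 and 228.5 in DMSO replicates 1, 2 and 3. Every Olaparib sample lay above every DMSO sample. The means were 275.4 ± 21.6 (SD, n = 3) with Olaparib and 215.0 ± 13.3 (SD, n = 3) with DMSO. RUNX3 rose 1.28-fold, with a log2 fold change of 0.35 ± 0.083 (SE) and an adjusted p of 0.0094 in edgeR's quasi-likelihood test. DESeq2 also called the rise, with an adjusted p of 0.0453. The call rests on few samples: in edgeR's test the adjusted p was 0.079 without Olaparib replicate 2, 0.0506 without DMSO replicate 1 and 0.0514 without DMSO replicate 2. In bulk samples such as these, a change in the share of cells that carry a transcript and a change in its RNA per cell cannot be told apart.

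RUNX2 (ENSG00000124813), the RUNX factor of bone-forming cells, spans 336.2 kb of the plus strand (chr6:45328157-45664349) and had the lowest level of the 10 genes per length of exon. Its normalized counts were 116.4, 102.6 and 109.3 with Olaparib and 86.78, 84.33 and 90.06 with DMSO. The groups did not overlap, and the DMSO samples lay close together. The log2 fold change was 0.33 ± 0.12 (SE), a ratio of 1.26, with a 95% interval of 0.079 to 0.58. The adjusted p was 0.16 in edgeR's quasi-likelihood test, so RUNX2 was not called, although the size of its difference was near that of RUNX3. Counting error alone was 10.1% of a single RUNX2 value, against 2.74% for RUNX1.

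RUNX1 (ENSG00000159216), which spans 1216.9 kb of the minus strand (chr21:34787801-36004667), had the most counts of the RUNX genes. Normalized counts of RUNX1 were 1453, 1285 and 1375 with Olaparib and 1243, 1316 and 1301 with DMSO. Olaparib replicate 2 lay inside the range of the DMSO samples, so the groups overlapped. The log2 fold change was 0.092 ± 0.047 (SE), with a 95% interval of -0.0041 to 0.19 and an adjusted p of 0.368 in edgeR's quasi-likelihood test.

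CBFB (ENSG00000067955), the partner of all 3 RUNX proteins (chr16:67028984-67101058, plus strand), had the most counts of the 10 genes. The 3 Olaparib samples had normalized counts of 2288, 2074 and 2140 and the DMSO samples 2274, 2231 and 2265. The DMSO samples were close together and the Olaparib samples lay on both sides of them. The log2 fold change was -0.058 ± 0.042 (SE), with a 95% interval of -0.14 to 0.027 and an adjusted p of 0.572 in edgeR's quasi-likelihood test.

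GATA3 (ENSG00000107485), a factor of luminal breast epithelium and helper T cells, covers 29.8 kb of the plus strand (chr10:8045378-8075198). Its normalized counts were 213.6, 195.9 and 161.0 with Olaparib and 148.5, 145.1 and 130.8 with DMSO. The groups did not overlap, and the Olaparib samples were spread more widely (190.2 ± 26.7, SD, n = 3) than the DMSO samples (141.5 ± 9.38, SD, n = 3). GATA3 rose 1.34-fold, with a log2 fold change of 0.43 ± 0.11 (SE) and an adjusted p of 0.0161 in edgeR's quasi-likelihood test. This call was the least steady of the 3. DESeq2 gave an adjusted p of 0.0584, and in edgeR's test it was 0.124 without Olaparib replicate 1, 0.0857 without Olaparib replicate 2, 0.0579 without DMSO replicate 2 and 0.122 without DMSO replicate 3.

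GATA6 (ENSG00000141448), a factor of endoderm, heart and mesothelial or ovarian surface lineages, lies on the plus strand (chr18:22169589-22202528). Normalized counts of GATA6 were 152.8, 182.6 and 160.0 with Olaparib and 130.7, 116.7 and 148.8 with DMSO. The groups did not overlap, but the lowest Olaparib sample lay just above the highest DMSO sample. The log2 fold change was 0.32 ± 0.11 (SE), a ratio of 1.25, with a 95% interval of 0.095 to 0.55. With an adjusted p of 0.117 in edgeR's quasi-likelihood test, GATA6 was the nearest of the 7 genes that missed the threshold.

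GATA2 (ENSG00000179348), a factor of blood progenitors and endothelium (chr3:128479427-128493201, minus strand), had the fewest counts of the 10 genes. Low counts were found in all samples, at normalized values of 52.63, 59.49 and 48.71 with Olaparib and 59.6, 47.07 and 61.62 with DMSO. The groups overlapped, with a DMSO sample at each end of the range. The log2 fold change was -0.066 ± 0.17 (SE) and the adjusted p 0.909 in edgeR's quasi-likelihood test. Its 95% interval, -0.41 to 0.27, holds a fall of the size of the change in MITF, but no rise as large as that of RUNX3.

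TFAP2A (ENSG00000137203), an AP-2 factor of neural crest and epidermis, lies on the minus strand (chr6:10393186-10419659). Normalized counts of TFAP2A were 272.3, 236.9 and 262.4 with Olaparib and 240.5, 311.8 and 253.1 with DMSO. DMSO replicate 2 stood above the other 5 samples, and without it the log2 fold change turned from -0.063 to 0.059. The 95% interval over all 6 samples was -0.24 to 0.12 and the adjusted p 0.811 in edgeR's quasi-likelihood test.

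TFAP2C (ENSG00000087510), an AP-2 factor of trophoblast, germ cells and luminal breast epithelium, lies on the plus strand (chr20:56629306-56639283). For TFAP2C the normalized counts were 166.0, 136.4 and 133.2 with Olaparib and 128.6, 150.0 and 131.8 with DMSO. Olaparib replicate 1 was the highest sample, and without it the log2 fold change turned from 0.085 to -0.020. The 95% interval over all 6 samples was -0.14 to 0.31 and the adjusted p 0.798 in edgeR's quasi-likelihood test.

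MITF (ENSG00000187098), the pigment-cell member of the MiT/TFE family, spans 228.9 kb of the plus strand (chr3:69739456-69968336). Its normalized counts were 227.7, 249.2 and 201.8 with Olaparib and 270.8, 289.3 and 308.1 with DMSO. Every Olaparib sample lay below every DMSO sample. The means were 226.3 ± 23.8 (SD, n = 3) with Olaparib and 289.4 ± 18.6 (SD, n = 3) with DMSO. MITF fell to 0.78 of its DMSO level, with a log2 fold change of -0.36 ± 0.083 (SE) and an adjusted p of 0.00912 in edgeR's quasi-likelihood test. DESeq2 gave an adjusted p of 0.0432, and in edgeR's test it was 0.103 without Olaparib replicate 3 and 0.0936 without DMSO replicate 3. The counts add up all MITF transcripts, and the isoforms that start at different promoters of this gene were not analysed here.

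**Figure D2:**
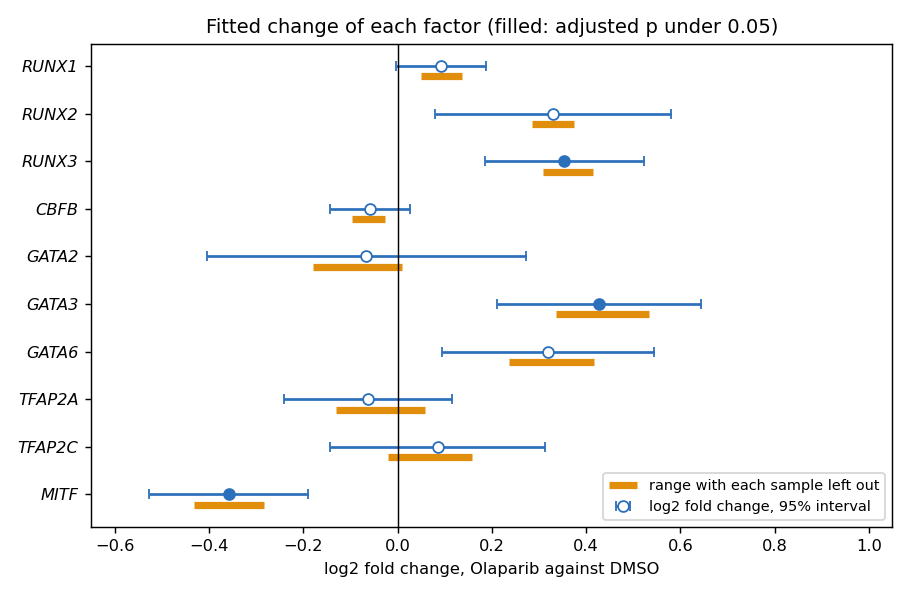
Fitted log2 fold change of each gene, Olaparib against DMSO (x axis), with its 95% interval (blue) and the range of the estimate when each of the 6 samples is left out in turn (orange). Filled points passed an adjusted p of 0.05. The intervals of RUNX2, RUNX3, GATA3 and GATA6 lie above 0 and that of MITF lies below it, and the orange ranges of GATA2, TFAP2A and TFAP2C cross 0.

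Paralogs were compared within each sample by the ratio of their normalized counts, which cancels the depth of the library. For RUNX1 over RUNX2 the ratio was 12.5, 12.5 and 12.6 with Olaparib and 14.3, 15.6 and 14.4 with DMSO. All 3 Olaparib samples were lower, and the log2 ratio differed by -0.24 ± 0.039 (SE, n = 3 a group). The SE of a ratio comes only from the spread of the samples. Here the Olaparib log2 ratios had an SD of 0.0048, while counting error alone was 10.1% of a single RUNX2 value. The SE for this pair is therefore likely too small. For RUNX1 over RUNX3 the ratio was 5.17, 4.38 and 5.47 with Olaparib and 6.16, 6.13 and 5.69 with DMSO. The log2 ratio differed by -0.27 ± 0.10 (SE), again with no overlap. That difference was -0.17 without Olaparib replicate 2. RUNX3 over RUNX2 gave 2.42, 2.86 and 2.3 with Olaparib and 2.33, 2.55 and 2.54 with DMSO. These overlapped, and the difference of 0.028 ± 0.10 (SE) did not exceed its error. RUNX2 and RUNX3 thus stood higher relative to RUNX1 in all 3 Olaparib samples, while their own ratio overlapped between the groups.

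In the GATA family, GATA3 over GATA2 was 4.06, 3.29 and 3.31 with Olaparib and 2.49, 3.08 and 2.12 with DMSO, a difference in log2 ratio of 0.48 ± 0.18 (SE). GATA6 over GATA2 was 2.9, 3.07 and 3.29 with Olaparib and 2.19, 2.48 and 2.42 with DMSO, a difference of 0.38 ± 0.074 (SE). In both ratios, all Olaparib samples were above all DMSO samples. Counting error alone was 8.21% of a single GATA6 value and 13.5% of a single GATA2 value. The SE for GATA6 over GATA2, taken from the spread of the samples, is therefore likely too small. GATA3 over GATA6 was 1.4, 1.07 and 1.01 with Olaparib and 1.14, 1.24 and 0.879 with DMSO, which overlapped. The difference of 0.094 ± 0.21 (SE) was smaller than its error. TFAP2A over TFAP2C was 1.64, 1.74 and 1.97 with Olaparib and 1.87, 2.08 and 1.92 with DMSO, which overlapped at a difference of -0.14 ± 0.090 (SE).

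The exact two-sided permutation test over samples cannot go below p = 0.1 with 3 samples against 3. Of the 7 pairs, the 4 with separate groups reached this smallest value (0.18 after Benjamini-Hochberg adjustment over the 7 pairs), so no pair could pass the threshold. The exact permutation p was 0.9 for RUNX3 over RUNX2, 0.8 for GATA3 over GATA6 and 0.3 for TFAP2A over TFAP2C. The pairs within a family share genes and are not independent of each other. How often other pairs of genes separate was not examined, and these genes were chosen on this comparison. Nothing is read from the 4 separate pairs.

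**Figure D3:**
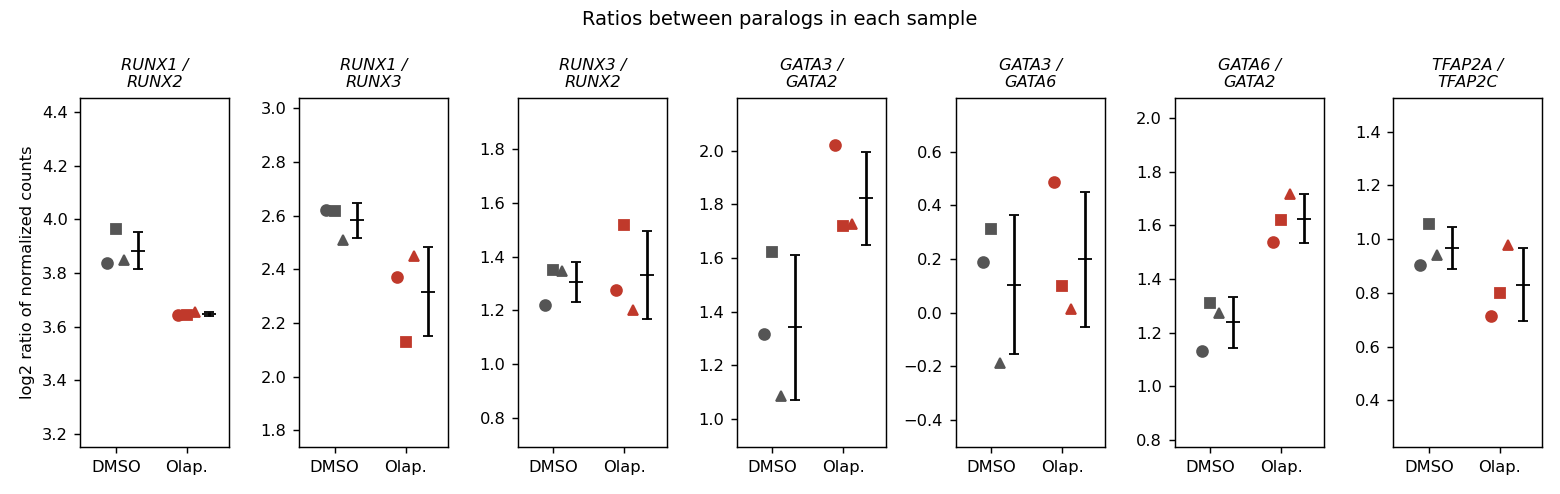
Log2 ratio of normalized counts (y axis, each panel spanning the same range of 1.3) between paralogs in each DMSO sample (grey) and Olaparib sample (red), with the mean and SD of each group as a black bar. Circles, squares and triangles are replicates 1, 2 and 3. RUNX1 stands lower with Olaparib against RUNX2 and RUNX3, and GATA3 and GATA6 stand higher against GATA2, without overlap between the groups. How often other pairs of genes separate was not examined.

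To compare levels between genes, normalized counts were divided by the length of each gene's exons, and are given as CPM (counts scaled to a fixed library total) per kb of exon. In DMSO, CBFB stood at 13.0 ± 0.13 (SD, n = 3), above 83.5% of the 20867 genes with a length. RUNX1 followed at 2.21 ± 0.066, above 55.3% of genes. The next 6 genes formed a run with no clear order, each overlapping its neighbour: TFAP2C at 1.22 ± 0.10, RUNX3 at 1.17 ± 0.072, GATA3 at 1.11 ± 0.074, MITF at 1.04 ± 0.067, GATA6 at 0.929 ± 0.11 and TFAP2A at 0.873 ± 0.12. GATA2 at 0.305 ± 0.043 and RUNX2 at 0.284 ± 0.0094 were lowest and overlapped each other, RUNX2 lying above 30.1% of genes. By exon length CBFB was thus present at several times the level of any RUNX gene. The gap to RUNX1 was smaller with the length of the canonical transcript (19.4 for CBFB against 5.76 in DMSO). It was smaller again in normalized counts with no length scaling (2257 against 1287).

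The order depends on which length is used. With the length of the canonical transcript in place of all exons, an alternative chosen after seeing the data, CBFB, RUNX1, GATA2 and RUNX2 kept their places, whereas TFAP2A moved from rank 8 to rank 3 and MITF from rank 6 to rank 4. Within families, RUNX1 made up 60.3% ± 0.95 (SD, n = 3) of the length-scaled RUNX level in DMSO and 55.9% ± 2.3 with Olaparib, without overlap. RUNX3 went from 31.9% ± 0.93 to 35.6% ± 2.6 and RUNX2 from 7.77% ± 0.31 to 8.49% ± 0.34, both without overlap. The shares depend on the length used: in DMSO they were 76.5% for RUNX1, 17.9% for RUNX3 and 5.58% for RUNX2 by canonical length, and 81.0%, 13.5% and 5.48% with no length scaling. GATA2 went from 13.0% ± 1.3 to 9.88% ± 0.44 of the sum of GATA2, GATA3 and GATA6, also without overlap. How often shares of other genes separate was not examined, so nothing is read from these separations. TFAP2A made up 41.6% ± 1.3 of the TFAP2A and TFAP2C sum in DMSO by exon length, but 64.0% by canonical length, so which of these paralogs is the more abundant is not settled by these counts.

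**Figure D4:**
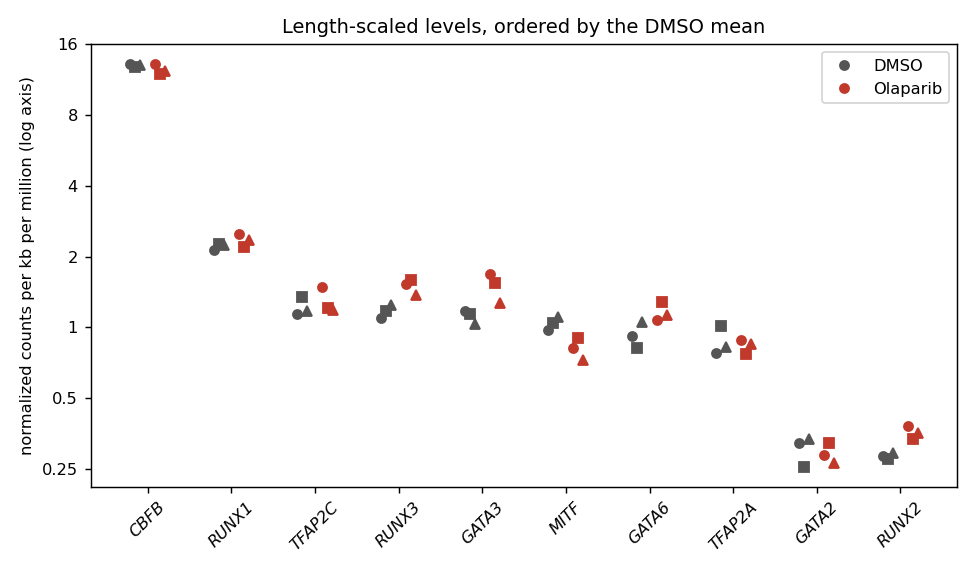
Length-scaled level of each gene in each sample (y axis, CPM per kb of exon, log axis), ordered by the DMSO mean. DMSO samples are grey, Olaparib samples red, and circles, squares and triangles are replicates 1, 2 and 3. CBFB and RUNX1 lead, GATA2 and RUNX2 are lowest, and the 6 genes between them lie close together.

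Other members of the same families were detected at very different levels. GATA4, a paralog with 1523 counts over the 6 samples, stood at 1.48 ± 0.089 CPM per kb in DMSO, above the mean of GATA3, with a log2 fold change of 0.089 (adjusted p = 0.669, edgeR's quasi-likelihood test). TRPS1, a GATA-type repressor, stood at 1.78 ± 0.063. GATA1 and GATA5 had 0 counts in the 6 libraries, TFAP2D 2, TFAP2B 11 and TFEC 13. Of the partners of MITF, TFE3 was the most abundant, at 11.4 ± 0.29 in DMSO and 10.4 ± 0.28 with Olaparib. In normalized counts it stood at 1638, 1690 and 1601 with Olaparib and 1782, 1757 and 1846 with DMSO. All 3 Olaparib samples were lower, but at a log2 fold change of -0.13 the adjusted p of edgeR's quasi-likelihood test was 0.0956, so TFE3 was not called. For TFEB the value was -0.076 (adjusted p = 0.736 in the same test). Of the 8 other family members tested, 0 were called by edgeR's test or by DESeq2, which gave no adjusted p for 4 of them, and 1, TFE3, had an unadjusted p under 0.05.

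Proteins that act with these factors were compared next, from lists of general knowledge that were compiled with earlier results of these data known. Each count of called genes below stands against the 2.15% of all tested genes called higher and the 1.21% called lower. Each median stands against -0.0042 over all tested genes. No share of all genes is given for an unadjusted p under 0.05, so counts at that threshold have no background here. The RUNX cofactors include the TLE corepressors, SMAD3 and EP300. Of the 13 tested, 0 were called by edgeR's test or by DESeq2, and 4 had an unadjusted p under 0.05, with a median log2 fold change of 0.030. TLE4, a corepressor, came nearest, at 397.6 ± 16.4 (SD, n = 3) with Olaparib and 341.7 ± 10.0 with DMSO (adjusted p = 0.0523, edgeR's quasi-likelihood test). Of the 10 GATA cofactors tested, 0 were called by either tool and 1, ZFPM1, which encodes the GATA partner FOG1, had an unadjusted p under 0.05, with a median log2 fold change of 0.052. ZFPM1 reached a log2 fold change of 0.27, with adjusted p = 0.221 in edgeR's test.

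Over the 10 AP-2 cofactors tested the median was 0.045, and 3 had an unadjusted p under 0.05. Of the 10, 0 were called lower and 1 higher. This was CITED4, a coactivator of AP-2 proteins, with normalized counts of 1415, 1592 and 1500 with Olaparib and 1221, 1288 and 1309 with DMSO. The groups were separate, with a log2 fold change of 0.24 and an adjusted p of 0.00169 in edgeR's quasi-likelihood test, at most 0.0289 with any sample left out. Over the 14 regulators of MITF tested the median was 0.035, and 3 had an unadjusted p under 0.05. Of the 14, 0 were called lower and 1 higher. It was FNIP1, a partner of folliculin in nutrient signalling to MiT/TFE proteins, with a log2 fold change of 0.19 and an adjusted p of 0.0475 in edgeR's quasi-likelihood test. That call was lost in DESeq2 (adjusted p = 0.153) and without 5 of the 6 samples, with adjusted p values in edgeR's test of 0.0771 without Olaparib replicate 1, 0.324 without Olaparib replicate 3, 0.072 without DMSO replicate 1, 0.158 without DMSO replicate 2 and 0.268 without DMSO replicate 3. SOX10 and PAX3, which drive MITF in melanocytes, had 1 count each over the 6 samples.

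Genes known as targets of each family were set against the same shares of all genes. Nothing is read from the counts, because these lists too were compiled with earlier results known. Counts at an unadjusted p under 0.05 again have no background here, in this list or those that follow. Of 14 RUNX targets tested, 0 were called by edgeR's test or by DESeq2, which gave no adjusted p for 4 of them, and 3 had an unadjusted p under 0.05: SNAI2, CDKN1A and VEGFA, with log2 fold changes of 0.29, 0.28 and 0.082. The median over that list, which holds RUNX1 itself, was 0.064.

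Of 14 GATA targets tested, 3 rose and 0 fell, with a median of 0.076, and 8 had an unadjusted p under 0.05, a count without a background here. EDN1, the vasoconstrictor peptide endothelin-1, had normalized counts of 4652, 4542 and 4617 with Olaparib and 3990, 3891 and 4121 with DMSO, a log2 fold change of 0.20 (adjusted p = 0.000256, edgeR's quasi-likelihood test). DAB2, an endocytic adaptor, had 702.4, 705.7 and 724.7 with Olaparib and 605.4, 580.5 and 609.6 with DMSO, a log2 fold change of 0.25 (adjusted p = 0.00201 in the same test). VWF, the von Willebrand factor, had 63.76, 69.75 and 68.59 with Olaparib and 39.73, 42.17 and 43.61 with DMSO, a log2 fold change of 0.68 (adjusted p = 0.0106 in the same test). For all 3 the groups did not overlap. Their calls in edgeR's test held with each sample left out, at adjusted p values of at most 0.0107, 0.0309 and 0.0483. VWF had only 327 counts over the 6 samples, and DESeq2 gave no adjusted p for it.

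Of 16 AP-2 targets tested, 1 rose and 0 fell, with a median of 0.076, and 7 had an unadjusted p under 0.05. IGFBP5, a binding protein of insulin-like growth factors, had normalized counts of 1753, 1869 and 1777 with Olaparib and 1465, 1481 and 1502 with DMSO. Every Olaparib sample was higher, with a log2 fold change of 0.28 (adjusted p = 5.32e-05, edgeR's quasi-likelihood test). Several listed genes stand on more than one list, among them CDH1, KRT18 and KIT for GATA and AP-2 and CDKN1A for RUNX and AP-2. KRT18, also an epithelial marker, was called higher by DESeq2 (adjusted p = 0.0298) and not by edgeR's test (0.0977), at a log2 fold change of 0.079.

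Of 12 MITF targets tested, 1 rose and 1 fell, with a median of 0.027, and 5 had an unadjusted p under 0.05. RAB27A, which carries melanosomes and other vesicles to the cell edge, had normalized counts of 808.7, 754.9 and 768.4 with Olaparib and 940.0, 872.7 and 919.5 with DMSO. All Olaparib samples were lower, with a log2 fold change of -0.23 and an adjusted p of 0.00419 in edgeR's quasi-likelihood test, and of 0.0642 without DMSO replicate 1. MET, the receptor of hepatocyte growth factor, rose by a log2 fold change of 0.11 (adjusted p = 0.0396, edgeR's quasi-likelihood test). Its call was lost without 5 of the 6 samples, at 0.167 without Olaparib replicate 1, 0.0613 without Olaparib replicate 3, 0.0537 without DMSO replicate 1, 0.130 without DMSO replicate 2 and 0.225 without DMSO replicate 3. Of 18 lysosome genes known as targets of the MiT/TFE family, all tested, 0 were called by edgeR's test, 3 had an unadjusted p under 0.05, and DESeq2 called 1 lower, SQSTM1. For SQSTM1, an autophagy receptor, the log2 fold change was -0.090 (adjusted p = 0.0723 in edgeR's test and 0.0446 in DESeq2), while CTSD and NEU1, which encode lysosomal enzymes, had values of 0.11 and 0.094. The median over the list was 0.025.

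**Figure D5:**
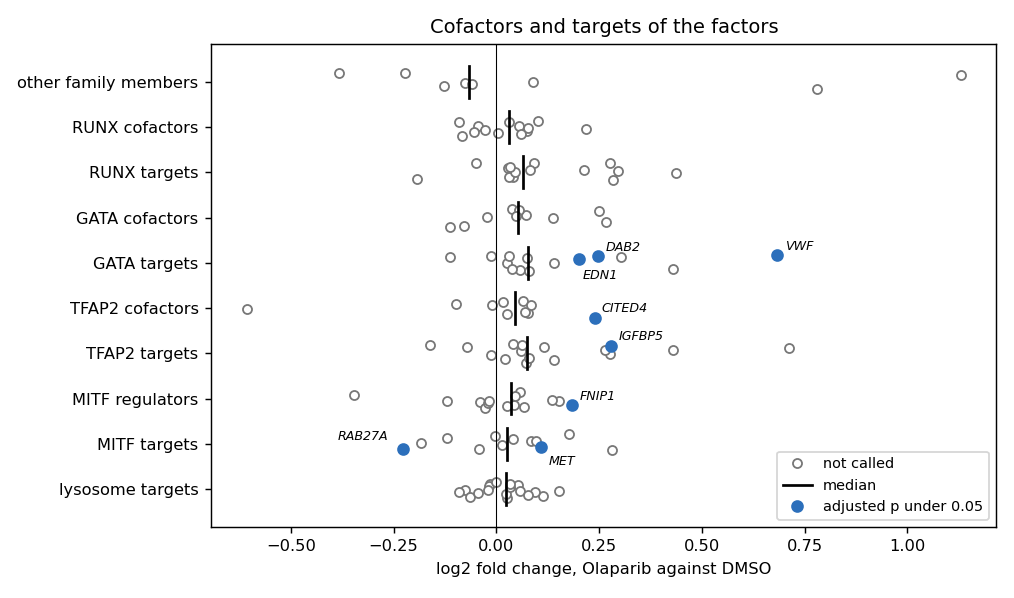
Log2 fold change, Olaparib against DMSO (x axis), of each tested gene of 10 lists (rows): other family members, cofactors or regulators, and known targets. Filled points passed an adjusted p of 0.05 and are named, and the black bar is the median of the list. Of the 8 filled points, 7 lie above 0 and RAB27A lies below it.

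Markers of cell types in which these factors are well known were examined beside these results. The 5 epithelial markers (EPCAM, KRT8, KRT18, KRT19 and CDH1) summed to 8560 to 8860 CPM in DMSO and 8870 to 9280 with Olaparib. Of the 5 Mullerian and ovarian markers, PAX8, MUC16, MSLN and SOX17 were detected, WT1 had 8 counts in all, and the sum was 505 to 530 in DMSO and 534 to 559 with Olaparib. PAX8 passed the test, with a log2 fold change of 0.10 (adjusted p = 0.0399 in edgeR's test). That call held without Olaparib replicate 1 and was lost without each of the other 5 samples, at adjusted p values of 0.0609 to 0.206. Both sums were higher in every Olaparib sample, with most counts from KRT8 and KRT18 in the first and from PAX8 in the second. Not all markers rose. Of the epithelial markers, 4 had a log2 fold change above 0, while EPCAM, at -0.039, was lower in every Olaparib sample. Of the tested Mullerian and ovarian markers, 3 were above 0 and MSLN was at -0.028. The part of these markers in the changes of RUNX3, GATA3 and MITF was not tested. Of 5 melanocyte markers, TYR was at 0, MLANA and SOX10 had 1 count each and DCT 5, and the summed level of 2.59 to 3.16 in DMSO and 3.14 to 3.73 with Olaparib was nearly all PMEL. Of 5 blood cell markers, CD3D was at 0 and CD3E and SPI1 had 6 and 8 counts, with a sum of 1.76 to 2.46 in DMSO and 2.07 to 2.3 with Olaparib. Other genes of these cell types were detected, with 686 counts over the 6 samples for PMEL, 717 for MC1R, 457 for TYRP1 and 403 for PTPRC. The 5 fibroblast markers summed to 45.7 to 49.1 in DMSO and 43.9 to 49.4 with Olaparib, with LUM at 0. The 4 endothelial markers summed to 43.1 to 46.1 in DMSO and 41.8 to 43.2 with Olaparib, with PECAM1 at 0 and nearly all counts from CDH5. VWF, named above among the GATA targets, is one of these endothelial markers.

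The genes whose level over the 6 samples was most like that of each called factor were sought among 11996 genes with a mean of at least 100 normalized counts, by Pearson correlation of log2 CPM. For RUNX3 these were ALAS1 (r = 0.993), FAM219A (0.992) and NPAS2 (0.989). For GATA3 they were NUAK1 (0.999), ALKAL2 (0.993) and ZRANB3 (0.991). For MITF they were ATXN2 (0.989), MICAL1 (0.988) and DNAH2 (0.985). Over 6 samples that share 2 treatments, 105, 60 and 53 of the 11996 genes had an r over 0.95 with RUNX3, GATA3 and MITF. The 3 names for each factor are thus the top of a longer list, and are a description.

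Antisense genes overlap some of these factors. GATA2-AS1 covers 1.59% of the exon length of GATA2 and had 26 counts in all, and GATA6-AS1 covers 2.47% of that of GATA6 and had 28. TFAP2A-AS1 covers 5.33% of the exons of TFAP2A and had 39 counts, while TFAP2A-AS2, which covers 11.45%, was not analysed here. The strand setting of the counting is not given in the sources used here, so reads of TFAP2A and of its antisense partners may be shared. RUNX3, GATA3 and MITF had no overlapping antisense exon in this annotation. SUPT3H lies on the opposite strand, and its span comes within 10 kb of the RUNX2 start. It differed by 0.058 on the log2 scale (adjusted p = 0.726, edgeR's quasi-likelihood test).

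Promoters of the factors were searched for the recognition letters of the 4 families on both strands. RefSeq (GRCh38.p14) gave 19 windows of 300 bases, from 250 before to 50 after a start site, for 8 of the 10 genes, and none for CBFB and TFAP2C. The RUNX letters TGTGGT were in 3 of the 19 windows, against 13.1% of all 35116 windows. The GATA letters AGATAA were in 0 of the 19, against 10.3%. The AP-2 letters GCCNNNGGC were in 8, against 23.2%, and the E-box CACGTG in 1, against 7.26%. The start sites used in these cells are not known from the counts, and several windows belong to 1 gene.

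RUNX2 and RUNX3 each had a window with a pair of RUNX letters in the same spacing. RUNX1 had 1 window (chr21:34888650-34888949), far inside the gene, whose 5′ end lies at position 36004667, so its distal promoter was not searched and the RUNX genes cannot be compared in this respect. The pair reads ACCACA, which is TGTGGT on the other strand, then 2 bases, then ACCACA again. Of all 35116 windows 4 held such a pair (0.0114%), and 2 of these 4 were windows of RUNX2 and RUNX3. The 30 bases around each pair are given 5′ to 3′ on the strand of the gene, with the RUNX letters in capitals, since they show the likeness between the paralogs.
RUNX3: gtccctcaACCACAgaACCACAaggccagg
RUNX2: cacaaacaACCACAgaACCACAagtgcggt
The RUNX3 stretch is chr1:24965120-24965149 on the minus strand, with the first capital at position -131, counted from 0 at the start site, and the RUNX2 stretch is chr6:45328338-45328367 on the plus strand, with the first capital at position 16. The pair was noticed after the windows had been searched and is a description of sequence, with no binding measured here.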

How the data were processed

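Poly(A) RNA of 6 UWB1.289 samples (3 Olaparib, 3 DMSO, grouped by the sample labels) was sequenced. Per the paper, the authors trimmed reads with Trimmomatic, mapped them to GRCh38 with STAR, marked duplicates with Picard and counted reads per gene with featureCounts. The deposited values are raw counts, whole numbers without normalization. Whether duplicates were removed and which strand setting was used are not given in the sources used here.

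The genes and all lists were chosen with earlier results of these data known. Genes with more than 10 counts in total were kept, as the study did. TMM-normalized counts were compared with edgeR 4.0.16 (quasi-likelihood test, no replicate block, R 4.3.3), with DESeq2 1.42.0 and limma voom 3.58.1 as alternatives. SE is the log2 fold change divided by the root of F. The test was checked on simulated counts. Replicates differed by more than sampling noise (chi-square per degree of freedom 1.81 to 4.11 over 15525 genes), and counting errors cover counting error only. Paralog ratios used a pseudocount of 0.5. Lengths, exons and coding sequences came from GENCODE release 44 and promoters from RefSeq. Coding sequences were aligned with MAFFT 7.526, in place of the planned protein comparison. The text names all 10 factors, list genes past the threshold or close to it, with the nearest named after their values were seen, and the 3 most similar genes per called factor.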

Additional observations from a re-analysis of the deposited data

How the results depend on the processing

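Of the 10 factors, 2 were called higher and 1 lower, and DESeq2 called 1 higher (RUNX3). Leaving out each sample in turn gave 0 to 2 higher and 0 to 1 lower. RUNX3, GATA3 and MITF kept their direction under every alternative run. Over all genes, 730 were called, and 262 when a fold over 1.2 was also asked. The paper, with DESeq2 at the same adjusted p and fold, reports far fewer changed genes than these 262. The reason for that difference was not examined. With no fold threshold, DESeq2 called 525 genes, limma voom 671, and edgeR 888 without a filter on low counts. With each sample left out, 398 to 870 were called (439, 398 and 401 without Olaparib replicate 3, DMSO replicate 2 and DMSO replicate 3). With the replicate block, 1322 genes were called, and the same numbers of factors, 2 higher and 1 lower. The labels share replicate numbers, but same-numbered samples correlated at -0.152, 0.259 and -0.266 (deviations from group means, 11997 genes). The numbers were therefore not taken to pair the samples. Samples with unlike numbers correlated from -0.356 to 0.44, the highest being Olaparib replicate 3 with DMSO replicate 1. The main fit has no term for such variation shared across the groups.

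Changes that turned direction were all uncalled. With each sample left out, the log2 fold change ran from -0.179 to 0.00893 for GATA2, from -0.131 to 0.059 for TFAP2A and from -0.0202 to 0.157 for TFAP2C. The difference in log2 ratio ran from -0.0642 to 0.0926 for RUNX3 over RUNX2 (-0.0144 without DMSO replicate 1) and from -0.0511 to 0.198 for GATA3 over GATA6 (-0.0486 without Olaparib replicate 1). The cause was not tested. Depth limits GATA2 most, where counting error alone was 13.5% of a value.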
